A study of Mus musculus with 8 samples.

Results

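Bnip3 and 9 other genes of mitophagy were followed in bulk RNA-Seq of mouse livers with and without hepatocyte Smo. The 10 genes, taken by symbol from the 25239 gene symbols counted in each liver, were Bnip3, Bnip3l, Fundc1, Bcl2l13, Fkbp8, Pink1, Optn, Sqstm1, Map1lc3b and Ulk1. Bnip3 was selected on the comparison of Smo-KO with control livers in these same data, so its values in that comparison are a description. No p is given for it. Where a count over the 10 genes or over all genes, a call past a threshold or a figure includes it, that is no evidence for it. The other 9 genes were added for their function, but with earlier results of these data known. All 10 passed the filter on low counts, which left 12977 genes.
The livers came from 4 control and 4 Smo-KO mice. All 8 were adult males with both Smo alleles floxed (Smo tm2Amc/J, C57Bl6/J background), and all ate the CDA-HFD for 6 weeks, a steatohepatitis-inducing diet without choline, with a defined supply of amino acids and with 60% of its energy as fat. A vector was given through the tail vein 1 week before sacrifice: AAV8-TBG-Luciferase in control mice and AAV8-TBG-Cre Recombinase in Smo-KO mice. The TBG promoter is active in hepatocytes, so Smo, the membrane protein that transmits Hedgehog signals, was targeted in hepatocytes, and the control mice carried the same floxed alleles. No liver on a normal diet is among the 8. Reads came from whole tissue, and fewer cells of a type and less RNA per cell cannot be told apart.

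Mitophagy is the removal of mitochondria by autophagosomes, which carry them to lysosomes for digestion. In 1 branch, receptors in the outer mitochondrial membrane (BNIP3, its relative NIX encoded by Bnip3l, FUNDC1, BCL2L13 and FKBP8) bind the LC3 and GABARAP proteins of the autophagosome directly. In the other, the kinase PINK1 builds up on damaged mitochondria and, with the ubiquitin ligase Parkin, marks them with phosphorylated ubiquitin, which adaptors such as optineurin (Optn) and SQSTM1 join to LC3. ULK1 is the kinase that starts autophagosome formation. Bnip3 is a textbook target of the hypoxia-inducible factors and of FOXO factors, and in liver mitophagy is known for clearing mitochondria during fasting and lipid overload. The SQSTM1 protein is itself digested by autophagy, and its gene is a known target of the antioxidant factor NRF2. Transcript counts measure neither these proteins nor the rate of mitophagy.

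Bnip3 lies on the minus strand of chromosome 7, at chr7:138890836-138909519 in GRCm38 (GENCODE annotation). The 250 bases before its RefSeq start (GRCm38.p6, chr7:138909507-138909756, minus strand) and those before the start of Optn (chr2:5064118-5064367, minus strand) are shown because these genes had no overlap between groups, with the Smo-KO livers higher, and because Bnip3 is known for its response to hypoxia. Map1lc3b also had no overlap between groups, but 77 bases of its window lie inside the gene as GENCODE draws it, and it is not shown. For Bnip3 this holds for 13 of the 250 bases printed and for Optn for 0, and the Fundc1 window, all 250 bases, lies inside its gene. Capitals mark ACGTG or GCGTG, the core that hypoxia-inducible factors bind, read on either strand, so that a site on the other strand appears as CACGT or CACGC.
Bnip3: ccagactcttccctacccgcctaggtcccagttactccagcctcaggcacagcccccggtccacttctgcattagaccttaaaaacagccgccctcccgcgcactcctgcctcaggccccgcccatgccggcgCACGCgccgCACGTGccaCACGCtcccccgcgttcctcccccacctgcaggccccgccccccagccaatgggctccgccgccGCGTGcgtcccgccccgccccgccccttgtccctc
Optn: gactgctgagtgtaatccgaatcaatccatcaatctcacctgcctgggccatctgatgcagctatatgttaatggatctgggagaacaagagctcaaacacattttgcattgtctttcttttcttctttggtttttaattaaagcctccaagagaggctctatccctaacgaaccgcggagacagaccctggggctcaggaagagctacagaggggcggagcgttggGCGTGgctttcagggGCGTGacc
The Bnip3 window held the core at 5 positions, which make 4 blocks of capitals because CACGTG, the E-box, reads as ACGTG on each strand. The Optn window held it at 2 positions. The core is common: 38.6% of 32851 RefSeq windows of the same length held it, and so did 7 of the 9 mitophagy genes with an entry (Bcl2l13, Bnip3, Fkbp8, Map1lc3b, Optn, Pink1 and Ulk1, but not Sqstm1 or Fundc1). Bnip3l had no entry. CACGTG was in 6.02% of all windows and, of the 9, in that of Bnip3 alone. The forkhead motif TGTTTAC (3.17% of all windows) and the GLI motif TGGGTGGTC (0.225%), each searched on both strands, were in none of the 9 windows. The Bnip3 window was 72.4% G and C and that of Optn 50%, against a median of 52.4%. A match is a run of letters and not evidence that a factor binds there.

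Between 8203299 and 9999732 reads per liver fell on genes (exact permutation test between groups, two-sided p = 0.257, n = 4 per group), so the 10 genes were well covered and Bnip3 had 1191 to 1626 reads in control and 1610 to 2397 in Smo-KO livers. Values are given in CPM, the reads of a gene scaled to the size of its library (TMM scaling). Smo, the targeted gene, had 8.17, 8.49, 8.74 and 8.21 CPM in controls 1 to 4 and 5.67, 3.93, 4.27 and 4.37 CPM in Smo-KO livers 1 to 4. The 4 Smo-KO values all lay below the 4 control values (exact permutation test, two-sided p = 0.0286, the smallest that 4 against 4 allow), and its log2 fold change was -0.88 (standard error 0.16; edgeR quasi-likelihood test, adjusted p = 0.0957). Counts per gene do not resolve the floxed exon from the rest of Smo. Smo-KO mouse 1 had the most Smo of the 4, but reads were few, at 72 to 88 in control and 35 to 55 in Smo-KO livers. Since reads came from whole tissue, these values do not show how much Smo the hepatocytes kept.

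Bnip3 was higher in Smo-KO livers than in control livers. It stood at 149, 135, 118 and 161 CPM in controls 1 to 4 and at 166, 255, 292 and 202 CPM in Smo-KO livers 1 to 4. The groups did not overlap, but the lowest Smo-KO liver, that of mouse 1, was only slightly above the highest control liver, and Smo-KO mouse 3 had the most. The means were 140.9 ± 18.3 CPM and 228.9 ± 55.9 CPM (SD, n = 4 each), a ratio of 1.63, and the log2 fold change was 0.70 (standard error 0.16). When each liver was left out in turn it lay between 0.56 and 0.83, highest without Smo-KO mouse 1. Among all 12977 genes tested Bnip3 stood at rank 173 by log2 fold change from the top, and among the 1018 genes at least as abundant it stood at rank 4. The Smo-KO livers differed among themselves in Bnip3 more than in most genes: its coefficient of variation was 24.4% there, above that of 95.6% of the 8072 genes with a log2 CPM of 4 to 11 (median 9.73%), and 13.0% in control livers (median 9.92%). Of the genes overlapping Bnip3 on the opposite strand, the antisense gene Gm45507 and the pseudogene Gm18258 were not among the symbols counted.

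**Figure D1:**
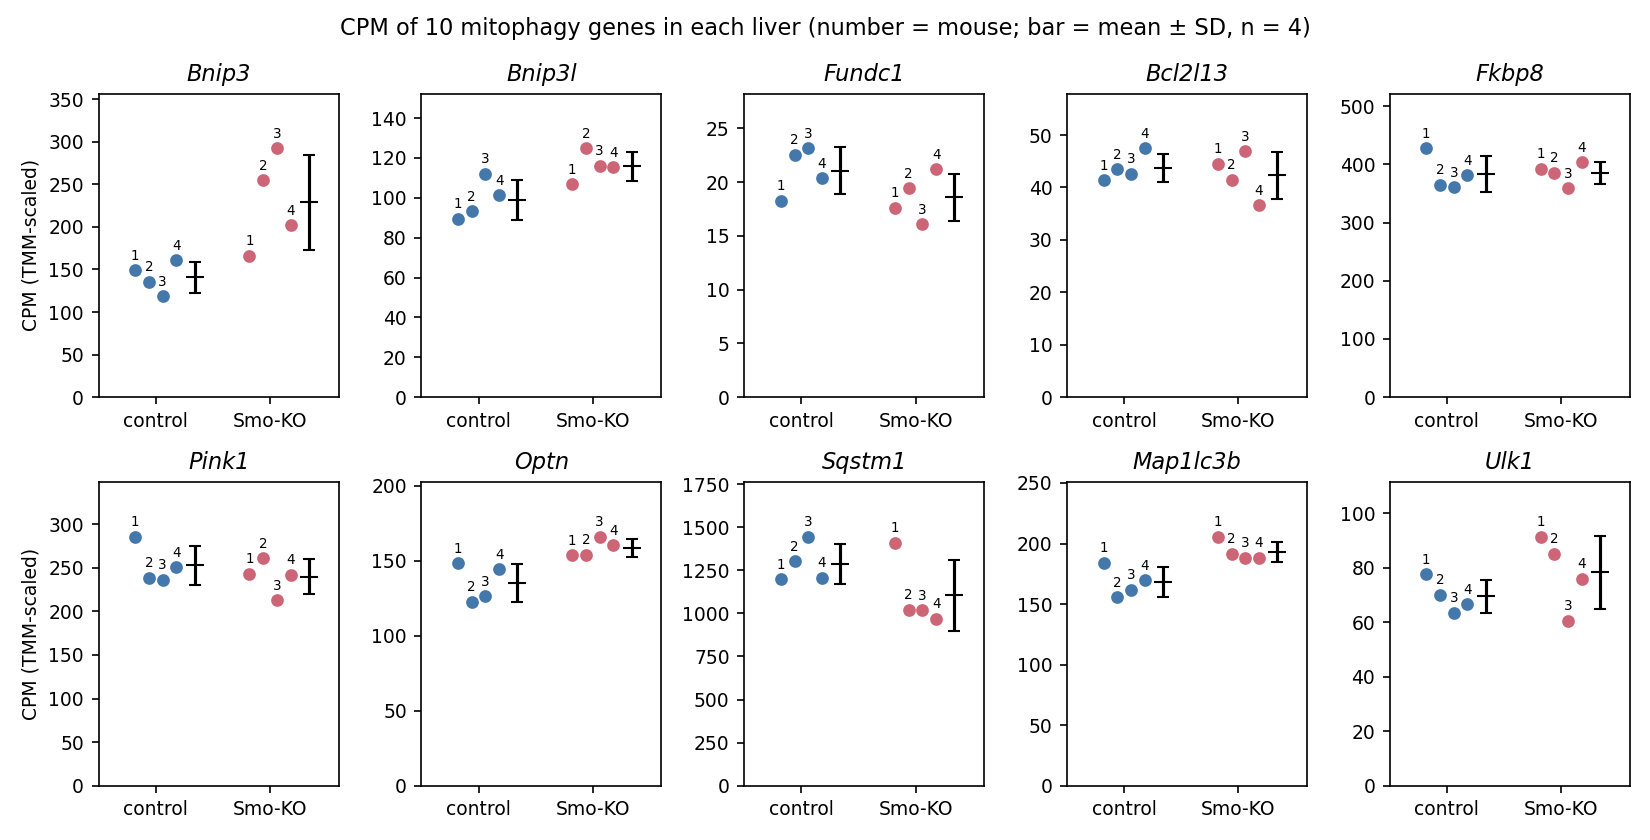
CPM (vertical axis, from 0) of the 10 genes in each of 4 control (blue) and 4 Smo-KO (red) livers; the numbers are mice and the black marks the mean ± SD. Bnip3, Optn and Map1lc3b have no overlap between groups, and Smo-KO mouse 1 stands apart from the other 3 in Sqstm1, at 1410 CPM.

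Of the other receptor genes, Bnip3l was the only one that passed an unadjusted p of 0.05, and none passed the adjusted threshold. Bnip3l (chromosome 14, 66985239 to 67008877) encodes NIX, which clears mitochondria in maturing red cells. It had 89.6, 93.2, 112 and 101 CPM in controls 1 to 4 and 107, 125, 116 and 115 CPM in Smo-KO livers 1 to 4. In 3 of the 4 Smo-KO livers it was above the highest control, and Smo-KO mouse 1 lay within the control range. edgeR gave a log2 fold change of 0.22 (standard error 0.094, adjusted p = 0.315).
The other receptors differed by less. Fundc1, an X-linked gene whose protein responds to hypoxia through its phosphorylation, averaged 21.1 ± 2.23 CPM in control and 18.6 ± 2.21 CPM in Smo-KO livers (SD, n = 4 each), which edgeR fitted as -0.18 on the log2 scale (standard error 0.12, adjusted p = 0.525). Bcl2l13, a BCL2 family protein regarded as the mammalian counterpart of a yeast mitophagy receptor, averaged 43.8 ± 2.63 and 42.4 ± 4.48 CPM. Its log2 fold change of -0.05 (edgeR adjusted p = 0.869) changed sign only without Smo-KO mouse 4, where it was 0.018. Fkbp8, an immunophilin anchored in the outer membrane, averaged 384 ± 30.6 and 385 ± 19.0 CPM, a log2 fold change of 0.0049 (edgeR adjusted p = 0.988). It changed sign without control mouse 2, control mouse 3 or Smo-KO mouse 4. In all 3 of these genes the livers of both groups overlapped. Bcl2l13 and Fkbp8 each overlap a gene on the opposite strand, Bid and Kxd1, and the library kit does not mark strand; Bid had a log2 fold change of -0.07 and Kxd1 of 0.15.
The log2 fold change of Bnip3l was smaller than that of its relative Bnip3. Bnip3 was chosen on this comparison, so this contrast and the ratios that follow restate that choice. The difference between the 2 genes was not tested. Per kilobase of exon, the ratio of Bnip3 reads to Bnip3l reads was 2.83, 2.47, 1.80 and 2.71 in control mice 1 to 4. In Smo-KO mice 1 to 4 it was 2.65, 3.48, 4.29 and 2.99. In 3 of 4 Smo-KO livers the ratio was above every control, and mouse 1 was again within the control range. Its size depends on the length used. Per kilobase of the longest transcript, the control means were 80.2 CPM for Bnip3 and 30.4 CPM for Bnip3l. A pseudogene, Bnip3l-ps, is annotated, and how reads shared between copies were counted is not given.

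Pink1 (chromosome 4, 138313409 to 138326307), the sensor kinase, showed no difference beyond the spread between livers. Its values were 286, 239, 236 and 250 CPM in control and 243, 261, 213 and 242 CPM in Smo-KO livers 1 to 4 (log2 fold change -0.08, standard error 0.095, edgeR adjusted p = 0.762).
The adaptor gene Optn was higher in every Smo-KO liver, while Sqstm1 was lower in 3 of 4. Optn (chromosome 2, 5020642 to 5064051), whose protein is phosphorylated by TBK1 on damaged mitochondria, had 148, 123, 126 and 144 CPM in controls 1 to 4 and 154, 154, 166 and 160 CPM in Smo-KO livers 1 to 4. The lowest Smo-KO value was just above the highest control, and the Smo-KO livers were close together. edgeR gave a log2 fold change of 0.23 (standard error 0.089, adjusted p = 0.287).
Sqstm1 (chromosome 11, 50199366 to 50210827) had 1198, 1304, 1445 and 1207 CPM in controls 1 to 4 and 1410, 1022, 1019 and 969 CPM in Smo-KO livers 1 to 4. Smo-KO mice 2 to 4 were below every control liver, and mouse 1 was within the upper part of the control range. The log2 fold change was -0.22 (standard error 0.12, edgeR adjusted p = 0.448) over all livers and -0.35 (edgeR adjusted p = 0.114) without Smo-KO mouse 1. Mrnip, which overlaps Sqstm1 on the opposite strand, had 8.97 ± 1.34 and 7.55 ± 1.87 CPM (SD, n = 4 each).

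Map1lc3b (chromosome 8, 121590361 to 121598760) encodes LC3B, the protein on the autophagosome membrane to which receptors and adaptors bind. It had 184, 156, 162 and 170 CPM in controls 1 to 4 and 206, 191, 188 and 188 CPM in Smo-KO livers 1 to 4. Every Smo-KO liver was above every control liver, by a small margin (log2 fold change 0.20, standard error 0.084, edgeR adjusted p = 0.308). Zcchc14, on the opposite strand of part of the gene, had a log2 fold change of -0.10. Gm20388, which overlaps Map1lc3b on the same strand, was not among the symbols counted.
With Map1lc3b higher and Sqstm1 lower in most Smo-KO livers, their ratio per kilobase of exon was 0.0687, 0.0533, 0.05004 and 0.0628 in control mice 1 to 4 and 0.0651, 0.0836, 0.0824 and 0.0867 in Smo-KO mice 1 to 4. Smo-KO mice 2 to 4 were above every control and mouse 1 was not. This ratio restates the values of both genes given above, and it was not tested.
Ulk1 (chromosome 5, 110784488 to 110810097) spread widely in Smo-KO livers, at 91.3, 85.1, 60.6 and 75.9 CPM in mice 1 to 4, against 77.7, 70.04, 63.5 and 66.6 CPM in control mice. The highest and the lowest of the 8 values were both from Smo-KO mice (log2 fold change 0.17, standard error 0.12, edgeR adjusted p = 0.557). The log2 fold change of Ulk1 was 0.097 without Smo-KO mouse 1 and 0.28 without Smo-KO mouse 3.

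**Figure D2:**
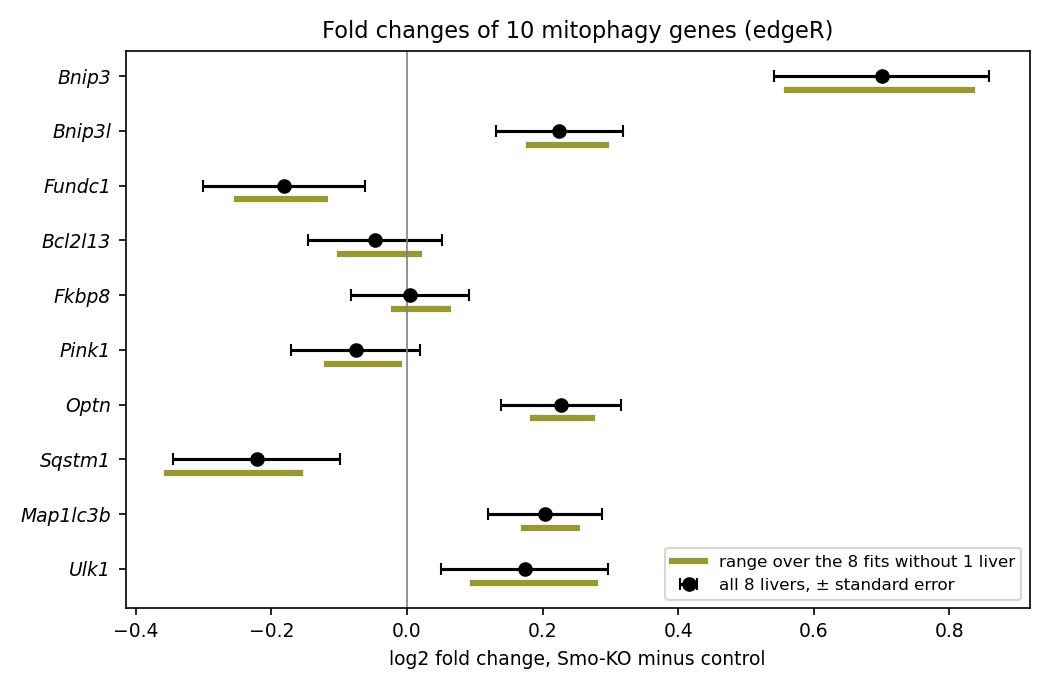
Log2 fold change of each gene, Smo-KO minus control (horizontal axis), with its standard error, and below it the range over the 8 fits without 1 liver (olive bar). Bnip3 lies at 0.70, the other genes lie between -0.22 and 0.23, and the ranges of Bcl2l13 and Fkbp8 cross 0.

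Across the 10 genes, 6 had a log2 fold change above 0 and 4 below, with a median of 0.09, where the median of all genes tested was -0.000845. With edgeR none passed an adjusted p of 0.05, and none of the 12977 genes did (0% of all genes, lowest adjusted p 0.0785; 1797 genes had an unadjusted p under 0.05). On the same 12977 genes the Wald test of DESeq2 called 163 (1.26%), of which 1, Bnip3, was among the 10. At an unadjusted p under 0.05, 4 of the 10 were higher in Smo-KO livers (Bnip3, Bnip3l, Optn and Map1lc3b) and 0 were lower, where 13.8% of all genes tested passed this threshold, 6.70% higher and 7.15% lower. Groups without overlap were found in 3 of the 10 (Bnip3, Optn and Map1lc3b, all higher), where they were found in 7.37% of all genes, 3.03% higher and 4.34% lower. Bnip3 was chosen on this comparison and the list was drawn up around it with results known, so nothing is read from these shares.

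The order of the 10 genes among themselves in control livers was set per length of transcript, as CPM per kilobase of the union of exons. Sqstm1 was highest at 384 ± 34.2 (SD, n = 4), then Pink1 at 94.6 ± 8.50, Fkbp8 at 84.7 ± 6.75 and Bnip3 at 62.2 ± 8.06. Optn at 36.1 ± 3.40, Bnip3l at 25.7 ± 2.58 and Map1lc3b at 22.3 ± 1.64 came next, and Ulk1 at 10.7 ± 0.941, Fundc1 at 8.96 ± 0.947 and Bcl2l13 at 4.81 ± 0.289 were lowest. Neighbours in this order did not overlap in their 4 livers, except Pink1 and Fkbp8, Bnip3l and Map1lc3b, and Ulk1 and Fundc1, whose ranges overlapped.
In Smo-KO livers Bnip3 averaged 101 ± 24.7 on the same scale and stood at rank 2, with a range that overlapped that of Pink1 at 89.7 ± 7.42; this restates the difference on which Bnip3 was chosen. The rest of the order was as in control livers. With the longest transcript as the length, Fkbp8 stood above Pink1 and Map1lc3b above Bnip3l in both groups, and Bnip3 stood at rank 4 in control and rank 3 in Smo-KO livers.

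**Figure D3:**
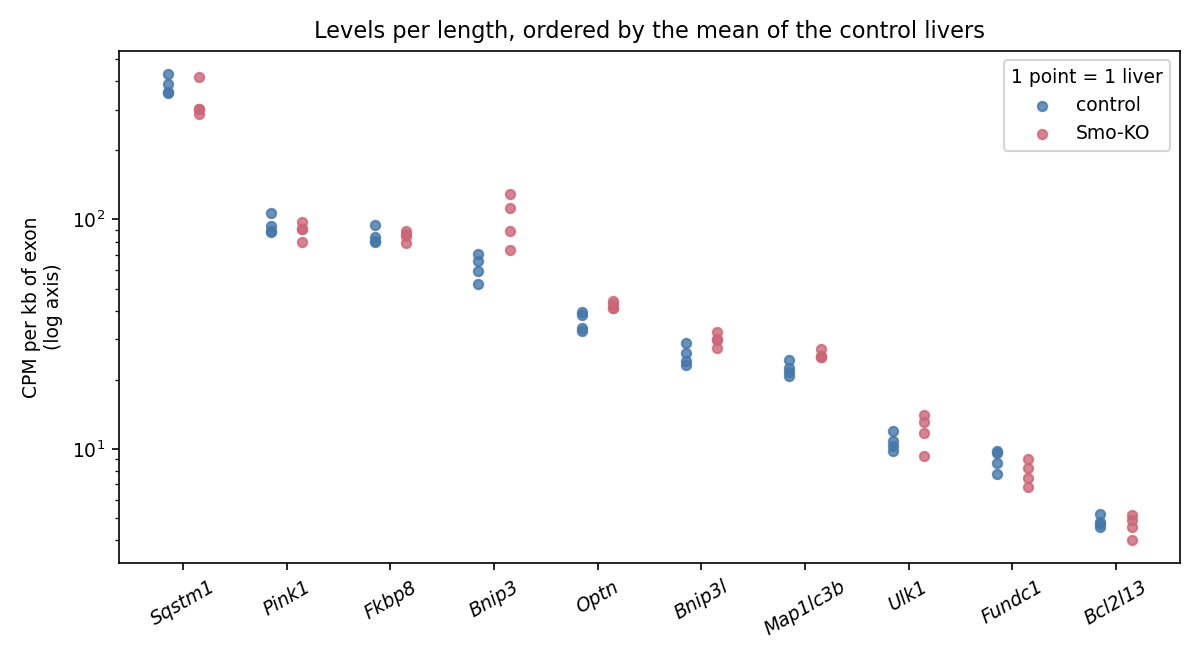
CPM per kilobase of exon (vertical log axis) of the 10 genes in each control (blue) and Smo-KO (red) liver, 1 point per liver, ordered by the control mean. Levels in control livers run from 384 for Sqstm1 to 4.81 for Bcl2l13, and Bnip3 moves from rank 4 in control to rank 2 in Smo-KO livers.

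The genes around the 10 were taken as 13 lists of 174 genes in all, and described by counts. Of these, 13 had an unadjusted p under 0.05 (8 lower and 5 higher in Smo-KO), and 0 passed the adjusted threshold in edgeR's test (13.8% and 0% of all genes). List medians ran from -0.17 to 0.09 on the log2 scale. For each list the 2 genes with the smallest p are named below with their log2 fold changes.
Among genes that act beside the receptors, the lists stayed near the median of all genes. In the Parkin branch (17 genes, 1 lower, median 0.0008), Vcp, the ATPase that pulls ubiquitinated proteins from membranes, had -0.24 and Parl, the inner membrane protease that cleaves PINK1, had 0.16. In the list of proteins that control BNIP3 and NIX (5 genes, 0 past the threshold, all 5 above 0, median 0.09), Rheb, a GTPase that activates mTORC1, had 0.11, and Pptc7, a mitochondrial phosphatase that holds BNIP3 and NIX in check, had 0.09. Without 1 liver Rheb ran from 0.055 to 0.18 and Pptc7 from 0.055 to 0.16. In the list of other cargo receptors (13 genes, 1 lower, median 0.03), Calcoco1, a receptor for endoplasmic reticulum, had 0.20.
Ncoa4, the receptor that delivers ferritin to the lysosome and so frees iron, was the lower gene of that list. It had 59.8, 64.1, 68.7 and 67.3 CPM in controls 1 to 4 and 48.2, 52.9, 44.9 and 37.7 CPM in Smo-KO livers 1 to 4. The groups did not overlap (log2 fold change -0.50, standard error 0.11, edgeR adjusted p = 0.126).
In the 2 lists of core autophagy machinery, which do not hold Map1lc3b or Ulk1, no gene passed even the unadjusted threshold. Among the ATG8 family and its enzymes (14 genes, median 0.02), Atg5, part of the complex that attaches LC3 to membranes, had -0.19 and Atg4d, a protease of LC3, had 0.16. Atg5 ran from -0.23 to -0.12 without 1 liver. In 2 of the 14 genes, Atg4d among them, every Smo-KO liver was above every control liver, where 3.03% of all genes were so. Among the genes of autophagosome initiation (17 genes, median 0.0083), Atg13, a subunit of the ULK complex, had -0.25 and Pik3r4, a subunit of the lipid kinase complex, had -0.18. Atg13 ran from -0.34 to -0.15 without 1 liver.

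Of the regulators, Ddit4 differed the most. Ddit4 encodes REDD1, an inhibitor of mTORC1 that stress, hypoxia and glucocorticoids are known to induce. It had 32.2, 23.0, 23.7 and 21.3 CPM in controls 1 to 4 and 15.9, 9.38, 4.02 and 6.72 CPM in Smo-KO livers 1 to 4. All Smo-KO livers were below all control livers (log2 fold change -1.46, standard error 0.29, edgeR adjusted p = 0.116). Smo-KO mouse 3, which had the most Bnip3, had the least Ddit4, at 33 reads. The other Smo-KO livers did not all run in opposite order, since mouse 2 had more of both genes than mouse 4. Sesn2, another stress-induced inhibitor of mTORC1, had -0.43 (edgeR adjusted p = 0.356). The remaining 15 of the 17 AMPK and mTORC1 genes did not pass the unadjusted threshold, and the list's median was -0.01.
Among the 7 transcription factors of autophagy genes (1 higher, median -0.08), Zkscan3, a repressor of autophagy genes, had 0.37 and Foxo3, an activator, had -0.45. Zkscan3 stood above the highest control in 3 of 4 Smo-KO livers. The groups overlapped in Foxo3, which ran from -0.61 to -0.29 without 1 liver.
The HIF pathway and textbook hypoxia genes, the class to which Bnip3 belongs, had 24 members tested, 1 higher and 2 lower, with 18 below 0 and a median of -0.08. Adm, a vasodilator peptide induced by hypoxia, had 4.08, 4.82, 4.77 and 5.24 CPM in control and 3.20, 2.51, 3.05 and 3.73 CPM in Smo-KO livers 1 to 4, without overlap (log2 fold change -0.60, edgeR adjusted p = 0.215). Hif1an, the hydroxylase that restrains HIF, had -0.25, also without overlap. Epas1, a HIF alpha subunit, was the gene with the higher value (0.25), and it is named here after its value was seen.
In the list of FOXO and fasting targets (9 genes, 1 higher, median -0.17), Pdk4, a kinase that shuts down pyruvate dehydrogenase in fasting, had 20.6, 29.5, 48.4 and 28.3 CPM in controls 1 to 4 and 45.1, 54.4, 97.8 and 31.3 CPM in Smo-KO livers 1 to 4. The groups overlapped, and Smo-KO mouse 3 was the highest (log2 fold change 0.84, standard error 0.31, edgeR adjusted p = 0.266). Without Smo-KO mouse 3 the log2 fold change of Pdk4 was 0.46, and without the other livers in turn it lay between 0.69 and 1.13. Sesn3 of the same list had -0.42.

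For mitochondria themselves, fission and fusion genes (10 genes, 0 past the threshold, median -0.02) included Mief2, an outer membrane receptor for DRP1, with 0.18, and Dnm1l, which encodes DRP1, with 0.16. Without 1 liver Mief2 ran from 0.089 to 0.27 and Dnm1l from 0.11 to 0.26. In the list of biogenesis and mitochondrial DNA upkeep (12 genes, 0 past the threshold, median 0.03), Tfb1m, a mitochondrial ribosomal RNA methyltransferase, had -0.32 and Esrra, a nuclear receptor that drives respiratory genes, had 0.14. In the list of outer membrane channels, import and matrix proteins (15 genes, 1 lower, median 0.03), Cs, citrate synthase, had -0.24 and Timm23, the inner membrane import channel, had -0.16. In the BCL2 family (14 genes, 2 higher and 1 lower, median -0.0040), Bak1, which forms pores in the outer membrane during apoptosis, had -0.39 without overlap between groups, and Bmf and Bad, which promote apoptosis, had 0.50 and 0.26. Bad is named after its value was seen.

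**Figure D4:**
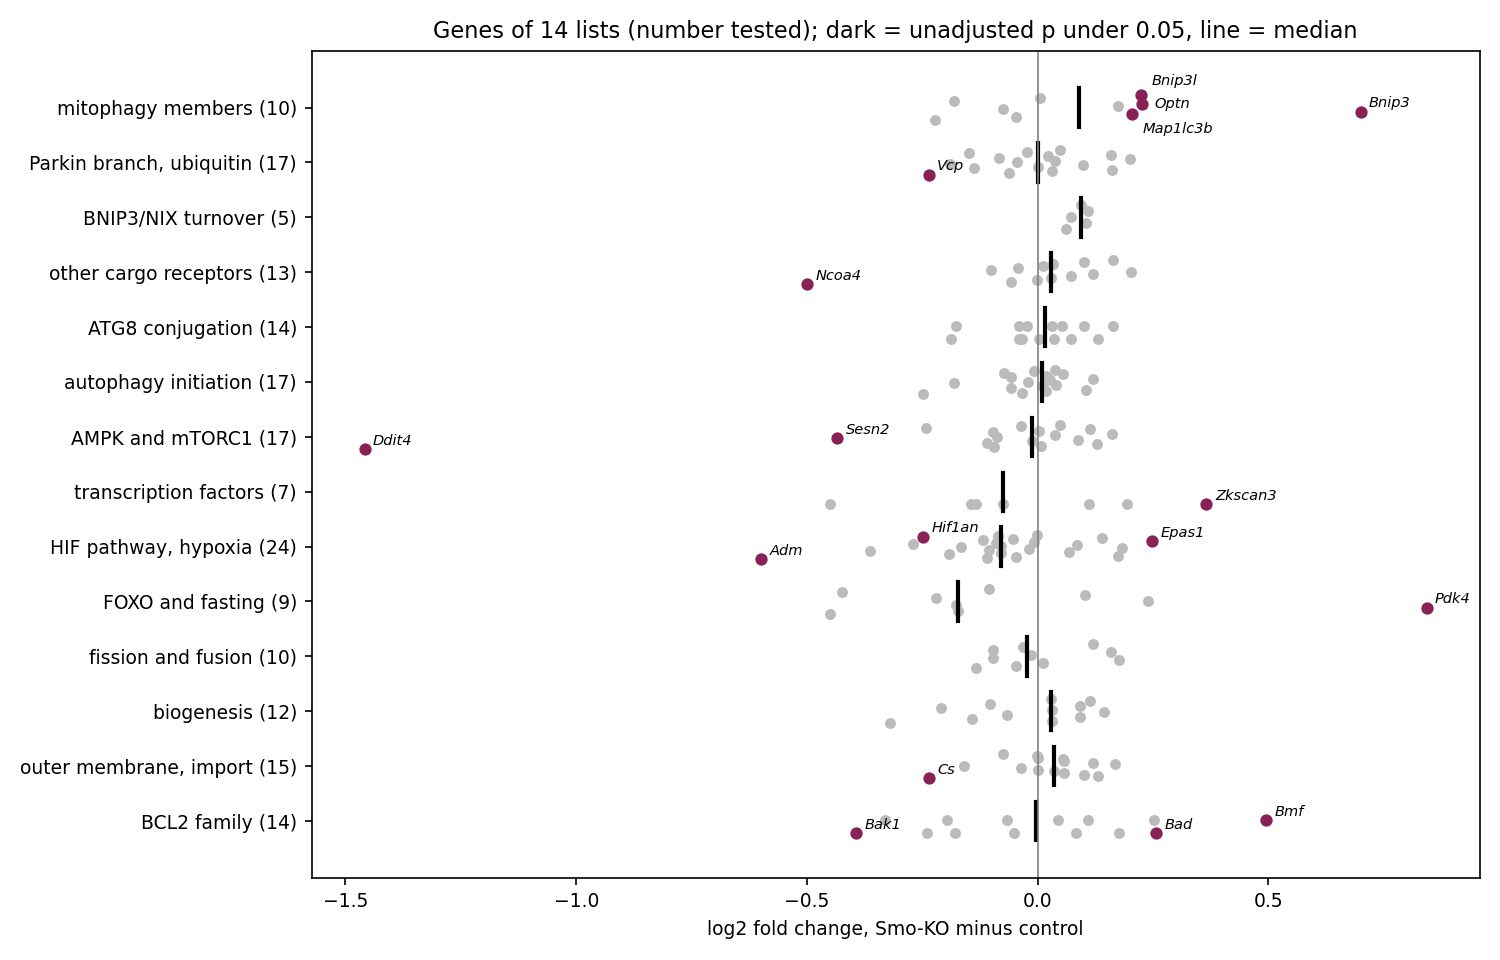
Log2 fold change, Smo-KO minus control (horizontal axis), of every tested gene of the 10 mitophagy genes (top row) and of 13 lists around them, with the number tested in parentheses; dark, named points have an unadjusted edgeR p under 0.05 and black lines are medians. List medians lie between -0.17 and 0.09, with Ddit4 at -1.46 and Pdk4 at 0.84 at the 2 ends.

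The genes whose pattern was most like that of Bnip3 were sought by Pearson correlation of log2 CPM over the 8 livers, among the 12976 other genes. These correlations are the highest of many, they include the difference between groups, and they are given as a description. Of the 5 with the highest r, Stk19, a nuclear protein with a role in transcription-coupled repair, Slc22a5, the carnitine transporter of the plasma membrane, and Fam227a are given here, each with an r of 0.98. Slc22a5 had 39.8, 33.7, 31.5 and 41.6 CPM in control and 47.3, 58.0, 66.0 and 49.3 CPM in Smo-KO mice. Within the Smo-KO livers this is the same order as for Bnip3, from mouse 1, the lowest, through mice 4 and 2 to mouse 3. Fam227a stood between 0.696 and 1.83 CPM, near the lowest level that was tested.
When the group means were removed, the genes most like Bnip3 were Srsf7, a splicing factor, with an r of 0.97, Senp8, a protease of NEDD8, and Nedd4, a ubiquitin ligase, with 0.96 each, and Zfp607a and Ak4 with 0.95 each, again over 8 livers. Of these, Ak4, an adenylate kinase of the mitochondrial matrix, ranged from 38.6 to 61.5 CPM in control and from 49.4 to 98.3 CPM in Smo-KO livers, with Smo-KO mice 2 and 3 highest as for Bnip3. Nedd4 and Senp8 differed between groups by log2 fold changes whose sign was not the same in all fits without 1 liver.
Among the mitophagy genes, Optn had an r of 0.83 with Bnip3 over the 8 livers and Sqstm1 one of -0.83, and without the group means these were 0.54 and -0.76. Spearman's rho was 0.93 for Optn and -0.76 for Sqstm1 over the 8 livers, and 0.60 and -0.48 without the group means. Smo-KO mouse 1 stood apart from the other Smo-KO livers in Sqstm1, and its part in these values was not tested. For Bnip3l and Map1lc3b the r was 0.65 and 0.61 with the group means and 0.13 and -0.12 without them. In the same order, with and then without the group means, Fundc1 had -0.66 and -0.45 and Ulk1 0.06 and -0.50. Pink1 had -0.30 and -0.06, Bcl2l13 0.02 and 0.35, and Fkbp8 -0.05 and -0.15.

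**Figure D5:**
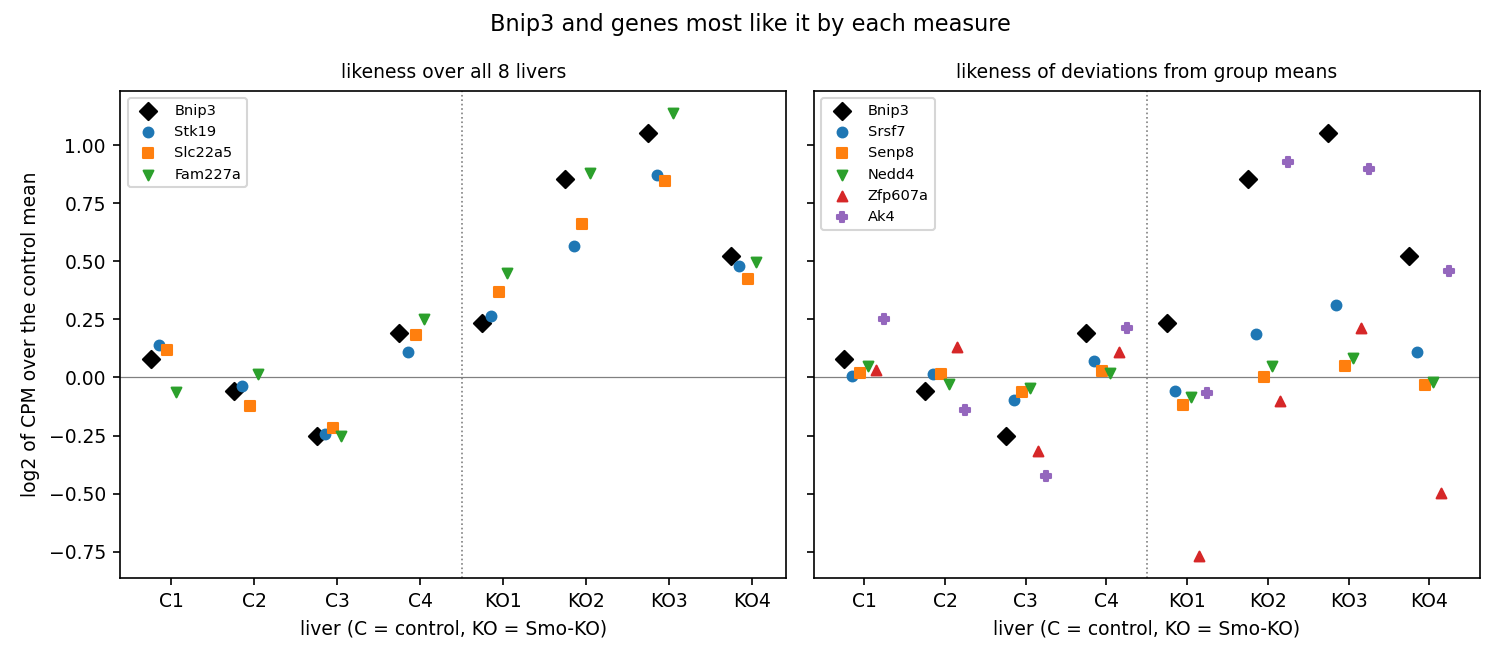
Log2 of CPM over the mean of the control livers (vertical axis) in each liver, C1 to C4 control and KO1 to KO4 Smo-KO, for Bnip3 (black diamonds) with 3 of the 5 genes most like it over all 8 livers (left) and the 5 most like it in their deviations from the group means (right). On the left all 4 genes are lowest in control mouse 3 and highest in Smo-KO mouse 3, and on the right Nedd4 and Senp8 stay near 0 in both groups.

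Markers of the cell types in the liver were read beside these results. The 10 hepatocyte markers summed to 37187, 31985, 32713 and 34714 CPM in controls 1 to 4 and to 34191, 34076, 33068 and 31977 CPM in Smo-KO livers 1 to 4, with overlap between groups and Alb as the most abundant. Of the 9 that were tested, 1 was lower at an unadjusted p under 0.05 and 0 were higher; the 1 was Cps1, the first enzyme of the urea cycle, and Ass1 had at most 3 reads in any liver. The 10 markers of T, NK and B lymphocytes summed to 47.2, 44.7, 40.0 and 52.8 CPM in controls 1 to 4 and to 24.1, 20.1, 35.2 and 31.6 CPM in Smo-KO livers 1 to 4, so every Smo-KO liver was below every control liver. Of the 8 lymphocyte markers tested, 5 were lower at an unadjusted p under 0.05 and 0 higher, Nkg7 was the most abundant at 14.5 and 7.59 CPM on average (adjusted p = 0.14 in edgeR and 0.0121 in DESeq2), and none was at 0 in every liver. Klrb1c had at most 3 reads anywhere. The part of the lymphocyte difference in the results on mitophagy genes was not tested.
The 10 markers of Kupffer cells and macrophages summed to 1514, 1365, 1939 and 1657 CPM in control and 1965, 1367, 1531 and 1629 CPM in Smo-KO livers 1 to 4, with Cd5l as the most abundant. Trem2, which marks lipid-laden macrophages, was the 1 gene of the 10 that was higher at an unadjusted p under 0.05, at 33.6 ± 2.94 and 56.5 ± 9.70 CPM (SD, n = 4 each; log2 fold change 0.75; adjusted p = 0.0957 in edgeR and 0.000156 in DESeq2), and it is named after its value was seen. The sums of the neutrophil, sinusoidal endothelial, stellate, cholangiocyte and red blood cell markers overlapped between groups, with means of 23.6 and 24.5, 172 and 144, 665 and 644, 150 and 179, and 111 and 107 CPM. In these 5 lists, 0 genes were higher and 1 endothelial and 1 stellate marker were lower at an unadjusted p under 0.05. Ly6g and 4 haemoglobin genes were listed at 0 in every liver, although Alas2 of the same red cell list had 111 CPM in control livers. The part of these other cells in the mitophagy results was not tested.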

How the data were processed

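Bulk RNA-Seq of 4 control and 4 Smo-KO livers was analysed from deposited whole-number read counts, not normalized by the authors, for 25239 gene symbols per liver, with tail entries in the form of htseq-count. The libraries were made with an RNA kit that does not mark strand. The submitters' processing notes name fastp, STAR 2.7.5, featureCounts 2.0.1 and GRCm38; the annotation and strand setting are not given in the sources used here. Genes with near-identical copies are uncertain, because how such reads were counted is not given either. Reads on no feature (8.33% ± 0.743 of counted reads in the control and 9.23% ± 0.330 in the Smo-KO group) or on more than 1 gene (2.55% and 2.51%) entered neither library sizes nor tests.
Testing used edgeR 4.0.16 under R 4.3.3 (filterByExpr, TMM, estimateDisp, glmQLFit and glmQLFTest, group as the only term) with Benjamini-Hochberg adjustment over 12977 genes at a threshold of 0.05. CPM used TMM-scaled library sizes, log2 CPM a prior count of 2, and standard errors are those implied by the F statistic. Single values were tested by exact permutation over the 70 assignments of 4 of 8 livers. Alternatives were other size factors, DESeq2 1.42.0, no filter, at least 10 counts in every liver, a replicate block, each liver left out in turn, another length, another prior count of 0.5 and Spearman's rho. The fit was checked on simulated counts. Lengths and positions came from GENCODE on GRCm38 and upstream sequences from RefSeq GRCm38.p6. At this depth 3 reads are 0.297 to 0.366 CPM; this covers counting error only, since molecular identifiers are not given. No pair of libraries within a group was a copy (chi-square of 7.76 to 17.5 per degree of freedom). The p-values measure the spread between these livers.
The mitophagy genes and all gene lists were chosen with earlier results of these data known, as were the alternatives. The genes named, unless said otherwise, are the 10 mitophagy genes, Smo, the 2 genes of each list with the smallest p, and the 5 genes most like Bnip3 by each of the correlations; 2 of the latter are not reported here, and all counts still include them.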

Additional observations from a re-analysis of the deposited data

Results flagged for a closer look

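In 94 sets of 4 livers, the 2 groups for each of 47 named genes, 4 had a single liver that stood apart (chance alone would give about 4.7). Smo-KO mouse 1 was the liver in 3 of them. It had 1410 CPM of Sqstm1 where the other Smo-KO livers had 969 to 1022 CPM, 56.6 CPM of Calcoco1 where the others had 50.5 to 50.6 CPM, and 52.5 CPM of Dnm1l where the others had 68.8 to 72.0 CPM. The fourth was Senp8 in control mouse 3, at 4.17 CPM where the other controls had 4.404 to 4.451 CPM.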

How the results depend on the processing

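With other size factors or at least 10 counts in every liver, 0 genes passed an adjusted p of 0.05, as in the fit reported. DESeq2 called 163 genes (79 higher, 84 lower), no filter 61 and the replicate block 8; without 1 liver the count ran from 0 to 78, with 78 without Smo-KO mouse 1, 5 without control mouse 1 and 4 without Smo-KO mouse 3. Of the mitophagy genes, 1 passed with DESeq2, 1 with no filter and from 0 to 1 without 1 liver (1 without Smo-KO mouse 1); this was Bnip3 each time, which was chosen on this comparison. Of the other 9 genes, Bnip3l, Optn and Map1lc3b had an unadjusted p under 0.05 under every alternative that kept all livers, where 11.4% to 16.3% of all genes did. Without 1 liver, against 9.50% (without Smo-KO mouse 3) to 17.8% (without Smo-KO mouse 1) of all genes, 0 of the 9 did without control mouse 2, Bnip3l without control mouse 3, Optn without control mouse 4, Map1lc3b without Smo-KO mouse 4, Optn and Map1lc3b without control mouse 1 or Smo-KO mouse 2, Map1lc3b and Ulk1 without Smo-KO mouse 3, and Bnip3l, Optn and Sqstm1 (lower) without Smo-KO mouse 1. With Bnip3 counted, which says nothing of its own stability, this makes 1 to 4 of the 10. Smo passed the adjusted threshold with DESeq2 (-0.87), with no filter (-0.88) and without Smo-KO mouse 1 (-0.997), and lay between -0.997 and -0.81 without 1 liver. Ddit4 passed with DESeq2, no filter, the replicate block and without Smo-KO mouse 1, and with DESeq2 so did Ncoa4, Stk19, Slc22a5 (also with no filter) and, among the markers, 3 of the 8 lymphocyte genes tested (Cd3e, Cd8a and Nkg7, named after their values were seen) and Trem2 (adjusted p as low as 0.02002 in edgeR without 1 liver). The cause of these differences was not tested. Same-numbered livers correlated weakly in their deviations, with r of 0.10, 0.19, 0.06 and 0.11. Of the 4 control livers, 3 correlated best with their own number. The sample titles give only the number, and whether the livers were paired is not known. The replicate block moved the count of all genes called to 8 and no call of a mitophagy gene. With Spearman's rho, 1 and 2 of the 5 genes most like Bnip3 remained, and with a prior count of 0.5 all 5 of each. With 4 livers a group and 1 counted library each, small differences such as those of Pink1, Fkbp8 and Bcl2l13 were not detectable beyond the spread between livers.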
